A study of Mus musculus with 4 samples.

Results

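Genes of the ciliary axoneme were followed across the cell classes of the adult mouse brain in 4 single-cell RNA libraries. The members were chosen by name: every row of the deposited matrices whose symbol begins with Cfap, Dnah, Dnaic, Dnali, Drc, Rsph or Tekt and that has at least 20 unique molecular identifiers (UMIs, counted molecules) summed over the 4 libraries. Of 68 symbols with these beginnings, 66 reached the limit, out of 32285 genes in the matrices. They were 32 Cfap, 16 Dnah, 2 Dnaic, 1 Dnali, 3 Drc, 7 Rsph and 5 Tekt genes. Cfap97d1 and Rsph6a lay just outside the limit with 3 and 6 UMIs, and Dnah17 and Cfap99 just inside with 56 and 198. Membership followed the names and that low limit on UMIs, but the rule was set with earlier results of these data known.

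The libraries were prepared from C57BL/6 mice aged 8 weeks (young) or 93 weeks (old). Each mouse had received either 1000 cells of CT2A-GFP-luc (a glioma line of the mouse that carries green fluorescent protein and luciferase) or saline, as sham, into the brain. The uninjected hemisphere was dissociated 2 weeks later. Each of the 4 groups was 1 library, and how many mice a library pooled is not given in the labels. Where 4 values are listed without names, the young libraries come first and sham comes before tumour at each age. Nothing distinguishes a group from its library, so no difference between groups was tested. Every interval below is a 95% interval for counting error only and does not cover variation between animals.

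The axoneme is the microtubule scaffold of a cilium. In motile cilia, outer and inner dynein arms on the doublet microtubules generate sliding, radial spokes and a central pair of microtubules regulate it, and the nexin-dynein regulatory complex links neighbouring doublets. Further proteins, among them the tektins, line the inside of the doublets. In the brain, multiciliated ependymal cells line the ventricles and move cerebrospinal fluid, the epithelium of the choroid plexus secretes that fluid and carries tufts of cilia, and astrocytes as a rule have a single primary cilium without dynein arms. Genes for motile cilia are known to be switched on by the transcription factors Foxj1 and the RFX family, and RFX factors bind a palindromic motif, the X-box.

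The promoters of the members were therefore searched for X-box letters, and 5 matches are shown to make the motif visible. RefSeq windows from 250 bases before to 50 bases after the start site (GRCm38.p6) were found for 54 of the 66 members, which gave 61 windows. The X-box was written as GTNNCCNNNGNAAC or GTNNCCNNGNAAC and read on both strands, and capitals mark it below. It lay upstream of the start site in each of these stretches, which are written 5′ to 3′ on the strand of the gene.
Cfap44, chr16:44394742-44394793, plus strand: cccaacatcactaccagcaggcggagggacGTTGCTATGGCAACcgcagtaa
Cfap206, chr4:34730208-34730259, minus strand: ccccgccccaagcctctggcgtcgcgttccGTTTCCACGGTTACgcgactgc
Dnah9, chr11:66168613-66168663, minus strand: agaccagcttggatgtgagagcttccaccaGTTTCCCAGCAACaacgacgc
Dnaic2, chr11:114727356-114727406, plus strand: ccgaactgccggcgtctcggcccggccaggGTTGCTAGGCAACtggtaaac
Tekt2, chr4:126325697-126325747, minus strand: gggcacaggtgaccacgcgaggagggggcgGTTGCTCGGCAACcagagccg

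Across the members, 18 of 61 windows (29.5%, from 16 genes) held an X-box of either spacing, against 1208 of all 32851 windows (3.68%). The half-site GTTGCC was present in 36.1% of the members' windows and in 12.5% of all windows, and some of these letters lie within an X-box. The forkhead letters TGTTTAC were present in 4 of the 61 windows (6.56%), against 3.65% of all windows. Members with most of their UMIs in ependymal cells had an X-box in 32.5% of windows, and the other members in 23.8%. These are matches of letters, given as a description, and say nothing of binding.

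Cell classes were defined by marker gates. A cell was called ependymal with at least 3 UMIs of Ccdc153 and Tmem212 together, and choroid plexus epithelium with at least 10% of its UMIs from Ttr. None of these gate genes is a member. The 4 libraries kept 10571, 10461, 9529 and 9829 cells, with a median of 3773 to 4858 UMIs per cell, and any pair shared 0.193 to 0.399% of the smaller library's barcodes. Ependymal cells numbered 115, 150, 121 and 223 or 1.09, 1.43, 1.27 and 2.27% of cells. Their identity was checked on 8 ependymal markers outside the gate, among them Foxj1 and Rarres2, and all 8 reached at least 50 CPM in the gated cells. CPM is the UMI count of a gene summed over the cells of a class in a library, per 1000000 UMIs of those cells. It is not divided by gene length, because molecules were counted from their 3′ ends, so levels are compared between genes per molecule only.

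Genes used as markers of other classes were also counted in the ependymal cells. The 7 astrocyte markers summed to 912, 1526, 1199 and 1075 CPM in them, against 7427 to 9015 CPM in astrocytes, and 94, 112, 86 and 150 of the ependymal cells passed the astrocyte gate too. Markers of tumour-like cells summed to 166 CPM in ependymal cells of young tumour and to 17.9 to 39.8 CPM in the other 3 libraries. The part of these transcripts in the results was not tested.

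The members were concentrated in ependymal cells. Of the 66 members, 46 had over 50% of their UMIs there, against 709 of 19853 genes with at least 20 UMIs (3.57%), although these cells held only 3.25 to 6.13% of all UMIs. The median member had 68.4% of its UMIs in ependymal cells, and the median gene 3.34%. In each library taken alone, 43 members stayed above 50%, against 2.35% of all genes. By mean CPM, 62 of 66 members were highest in ependymal cells, against 14.6% of all genes. Another 15 members had from 10 to 50% of their UMIs there and 5 had less than 10%.

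**Figure D1:**
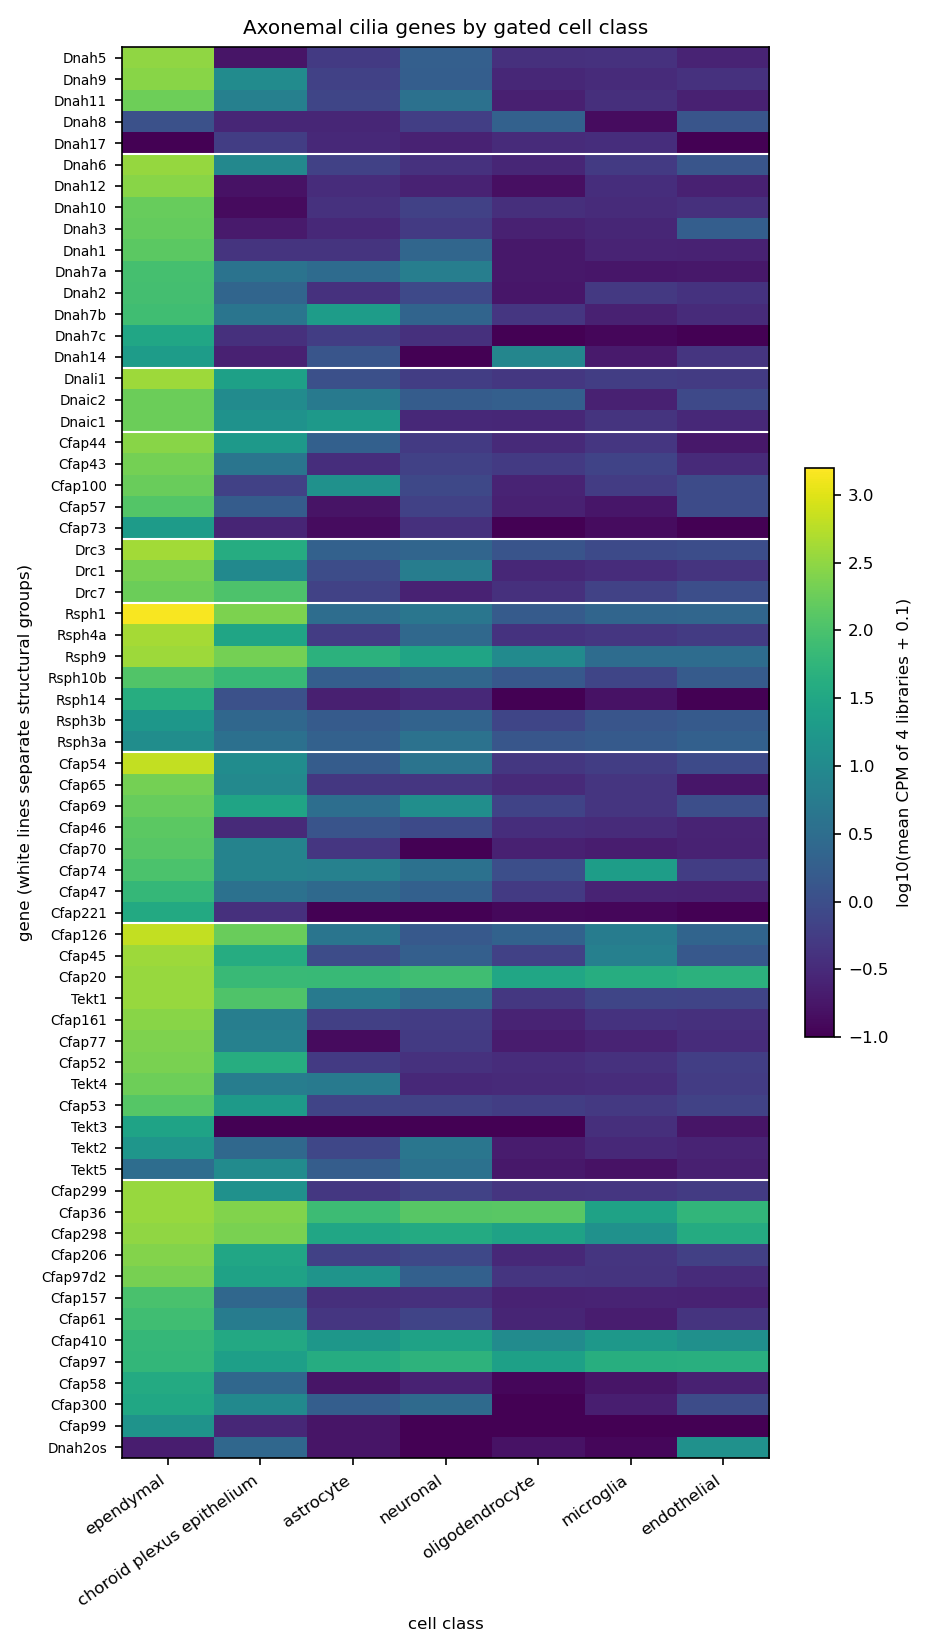
Mean level of each of the 66 members (rows, white lines separate structural groups) in 7 gated cell classes (columns), as log10 of the mean CPM of 4 libraries plus 0.1. The ependymal column is the brightest for 62 of 66 members, and the radial spoke genes, the tektin Tekt1 and Drc7 are also visible in choroid plexus epithelium.

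Summed over the 66 members, ependymal cells held 14148, 12882, 13299 and 12820.1 CPM. Choroid plexus epithelium held 1989, 2034, 2052 and 1938 CPM, astrocytes 413, 416, 415 and 415 CPM, microglia 186 to 203 CPM and endothelial cells 243 to 257 CPM. In whole libraries the members reached 1008, 889.9, 939.7 and 1436 CPM, highest in old tumour, which also had the most ependymal cells. In such whole-library values, a larger number of ependymal cells and more RNA per cell cannot be told apart.

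Among the outer arm dynein heavy chains, the motors of the outer arms, 3 of 5 had over 50% of their UMIs in ependymal cells. Dnah5 (chr15:28203752-28472052, GENCODE release 21 on GRCm38) stood at 384, 323, 289 and 278 CPM, with 85.5% of its UMIs in ependymal cells (95% exact binomial interval 84.3 to 86.6%). Dnah9, whose promoter X-box is shown above, stood at 313, 309, 255 and 276 CPM, and Dnah11 at 184, 187, 214 and 169.8 CPM. For Dnah5 and Dnah9 both old libraries lay below both young ones, and for Dnah11 they did not. The remaining pair, Dnah8 and Dnah17, which serve the sperm flagellum, was close to absent: Dnah8 reached at most 2.38 CPM and Dnah17 had 0 UMIs in the ependymal cells of all 4 libraries.

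The 10 inner arm heavy chains together reached 1599.6, 1365, 1431 and 1253 CPM in ependymal cells. Dnah6 was the most abundant with 438, 321, 328 and 286 CPM, followed by Dnah12 with 247 to 345 CPM, higher in sham than in tumour at both ages. Dnah12 had the highest share of all members in ependymal cells, 88.0% (86.8 to 89.1%). Dnah10, a chain of the inner arm that has a pair of motor heads, was at 188, 179, 162 and 139 CPM, and its partner Dnah2 at 95.8, 86.5, 76.7 and 88.8 CPM. Dnah7a, Dnah7b and Dnah7c, near-identical copies on chromosome 1 among which reads may have been divided uncertainly, ranged from 98.5 CPM for Dnah7a in young sham to 22.7 CPM for Dnah7c in old tumour. Dnah14 was the lowest of the inner arm chains and is described with the group comparisons.

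The intermediate and light chains, which anchor and regulate the motors, summed to 819, 672, 817 and 699 CPM in ependymal cells. Dnali1 stood at 412, 353, 425 and 373 CPM, and the outer arm intermediate chains Dnaic2 and Dnaic1 at 151 to 220.3 CPM. Dnali1, Dnaic1 and Dnaic2 were lower in both tumour libraries than in both sham libraries. The share of all genes with such an order of the libraries was not counted, here or for other members. The nexin-dynein regulatory complex was represented by Drc3 (403, 439, 378 and 426 CPM), Drc1 (279, 209, 225 and 205 CPM) and Drc7 (208, 175, 186 and 151 CPM). Drc7 had only 34.6% of its UMIs in ependymal cells, the lowest of the complex.

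Radial spoke genes included the most abundant member. Rsph1, a protein of the spoke head (chr17:31255019-31277383), reached 1555, 1406, 1335 and 1435 CPM in ependymal cells and had 61.4% of its UMIs there. The other head components Rsph4a and Rsph9 stood at 487, 404, 439.6 and 403 CPM and at 386, 357, 401 and 389.7 CPM. Rsph3a and Rsph3b, of the spoke stalk, are near-identical copies and stayed below 20 CPM in each library, so their separate counts are uncertain.

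Of the genes of the central apparatus, Cfap54 was by far the most abundant with 689, 613, 695 and 639 CPM and 81.6% of its UMIs in ependymal cells. The inner proteins of the doublets were led by Cfap126 (681, 647, 624 and 689 CPM) and Cfap45 (414, 402, 347 and 356 CPM). Cfap126 differed by a factor of 1.11 between its highest and lowest library. Of the tektins, filament proteins inside the doublets, Tekt1 stood at 379, 376, 312 and 344 CPM and Tekt4 at 166, 194, 185 and 197 CPM, whereas Tekt3 and Tekt2 were at 11.4 to 32.4 CPM. Tekt5, a tektin of sperm, was at 1.70 to 4.43 CPM.

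**Figure D2:**
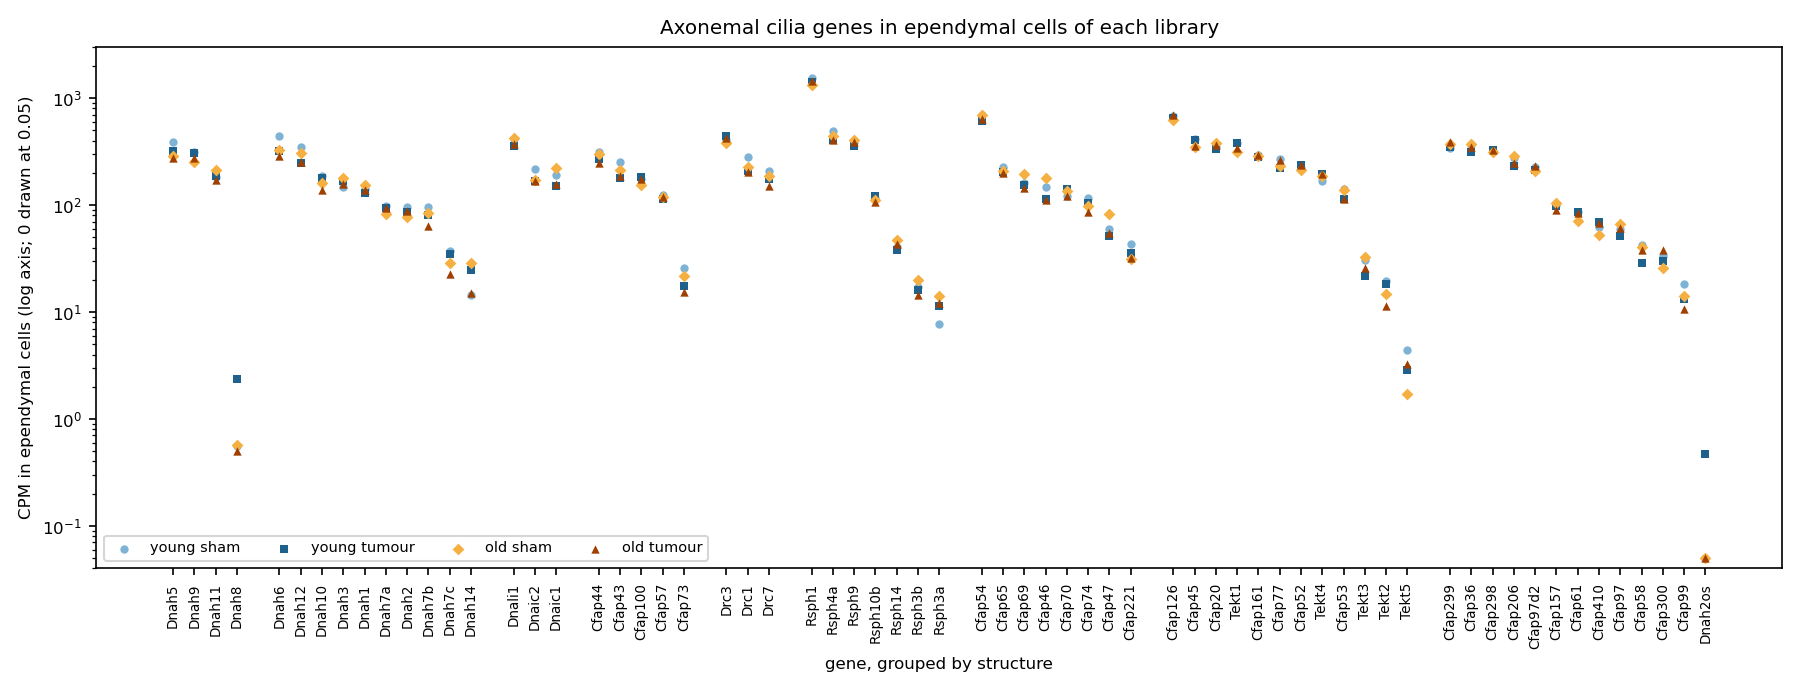
Level in CPM (log axis, 0 drawn at 0.05) of 65 members in ependymal cells, 1 point per library, with members grouped by structure; Dnah17, at 0 in all libraries, is left out. The 4 points of most members nearly coincide, from Rsph1 at 1335 to 1555 CPM downwards, while Dnah14 and the scarce Dnah8 spread widely.

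The spread over the 4 libraries was small for most members. The ratio of the highest to the lowest ependymal CPM had a median of 1.24 over the 62 members with at least 100 ependymal UMIs and of 1.35 over all 9231 such genes. It reached 1.5 in 10 of the 62 members, against 29.4% of all such genes. The members were more abundant than the typical gene, with a median of 1672 ependymal UMIs against 369. With at least 1000 UMIs, a limit added after seeing the data, the ratio reached 1.5 in 2 of 41 members and in 9.93% of all genes, and the medians were 1.20 and 1.23. The spread was smallest in Cfap298 (1.04), Cfap161 (1.06) and Cfap57 (1.10).

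Individual ependymal cells held many members at once. With each cell thinned to 2000 UMIs, a median of 19, 18, 18.5 and 18 of the 66 members was detected per cell. Shallower cells were left out of this count, 14, 9, 13 and 38 per library. Unthinned, the medians were 44, 42, 43 and 43 members at median depths of 8776 to 11023 UMIs. The interquartile ranges of the thinned values began at 15 or 16 and ended at 21 in the 4 libraries, which therefore overlapped.

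Choroid plexus epithelium held the next highest level, and its level relative to ependymal cells differed between structures and between members of the same structure. Free RNA can put a few UMIs into any droplet, so a member was counted as present where its CPM was at least 5 times that in both microglia and endothelial cells, classes without motile cilia, in each library. For this, counts below 3 UMIs in microglia or endothelial cells were set to 3, so scarce members could miss the limit whatever their ratio. In choroid cells 23 of 66 members met this, against 2.97% of all genes. They were led by Rsph1 (253, 268, 200.2 and 233 CPM), Cfap298 (202, 237, 244 and 231 CPM), Rsph9 (203, 234, 199 and 195 CPM), Cfap126 (161, 167, 176 and 192 CPM), Tekt1 (109.9, 116, 99.8 and 112 CPM) and Drc7 (104, 104, 132 and 79.9 CPM). These are genes of the spoke head, the doublet lumen and the regulatory complex, together with Cfap298, which is needed for dynein arm assembly. Cfap36 was also high in choroid cells (241 to 283 CPM) but was present in every class, so it did not meet the criterion.

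Set against ependymal cells, the radial spoke genes of choroid cells summed to 22.6% of the ependymal CPM, the regulatory complex to 18.9% and the inner doublet proteins to 16.9%. The outer arm heavy chains summed to 2.24% and the inner arm heavy chains to 1.44%. Between these lay the intermediate and light chains (6.42%), the central apparatus (4.52%) and the inner arm docking genes (3.05%). The heavy chains themselves divided: Dnah9 (9.04, 11.5, 11 and 9.97 CPM), Dnah6 (15.4, 4.78, 9.83 and 6.36 CPM) and Dnah11 (6.02, 4.78, 9.55 and 6.6 CPM) had UMIs in choroid cells of every library, and of these only Dnah9 met the criterion against microglia and endothelial cells. In young tumour, Dnah6 and Dnah11 rested on 5 UMIs each, so the floor of 3 UMIs can bear on whether they met the criterion. Dnah11 stood at a mean of 0.263 CPM in microglia and 0.147 CPM in endothelial cells. Dnah5 had 1 UMI in the choroid cells of all 4 libraries together, Dnah12 had 2 and Dnah10 had 1, although each stood at 139 CPM or more in ependymal cells of every library.

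The order did not follow ependymal abundance. Cfap54 was the third most abundant member of ependymal cells and stood at 9.55 to 13.0 CPM in choroid cells, whereas the less abundant Rsph10b (107 to 121 CPM in ependymal cells) stood at 56.3 to 81.9 CPM. Rsph10b overlaps Pms2 on the same strand, at a mean of 1.71 CPM in choroid cells, and Gm17135 on the opposite strand, at 9.77 CPM in choroid cells and 0 in ependymal cells. The part of either in the choroid level of Rsph10b was not tested. Mrps18a, on the opposite strand of Rsph9, was at a mean of 134 CPM in choroid cells and 67.2 CPM in ependymal cells. Its part in the choroid level of Rsph9 was not tested. Tekt5 was highest in choroid cells of the classes examined, with 8.73, 7.64, 13.3 and 12.2 CPM, each above the ependymal value of the same library. Of the 46 members with most UMIs in ependymal cells, the choroid level had a median of 3.58% of the ependymal level, ranging from 0 for Tekt3 to 26.4% for Cfap126.

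Most choroid cells had 0 UMIs of Ccdc153 and Tmem212 (404 of 413, 156 of 162, 411 of 419 and 634 of 659). Leaving out the few others could therefore change the sums little. In the cells with 0 UMIs, Rsph1 stood at 254, 258, 197 and 228 CPM and Dnah5 at 0.308, 0, 0 and 0 CPM. Of the kept cells, 0, 0, 1 and 3 passed both the ependymal and the choroid gate and were set apart from both classes. The 8 choroid markers summed to 10277 to 13675 CPM in choroid cells and to 328 to 400.3 CPM in ependymal cells. The 8 ependymal markers summed to 545 to 597 CPM in choroid cells, with Rarres2 at 9.83 to 19.1 CPM there against 3609.6 to 4727 CPM in ependymal cells.

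**Figure D3:**
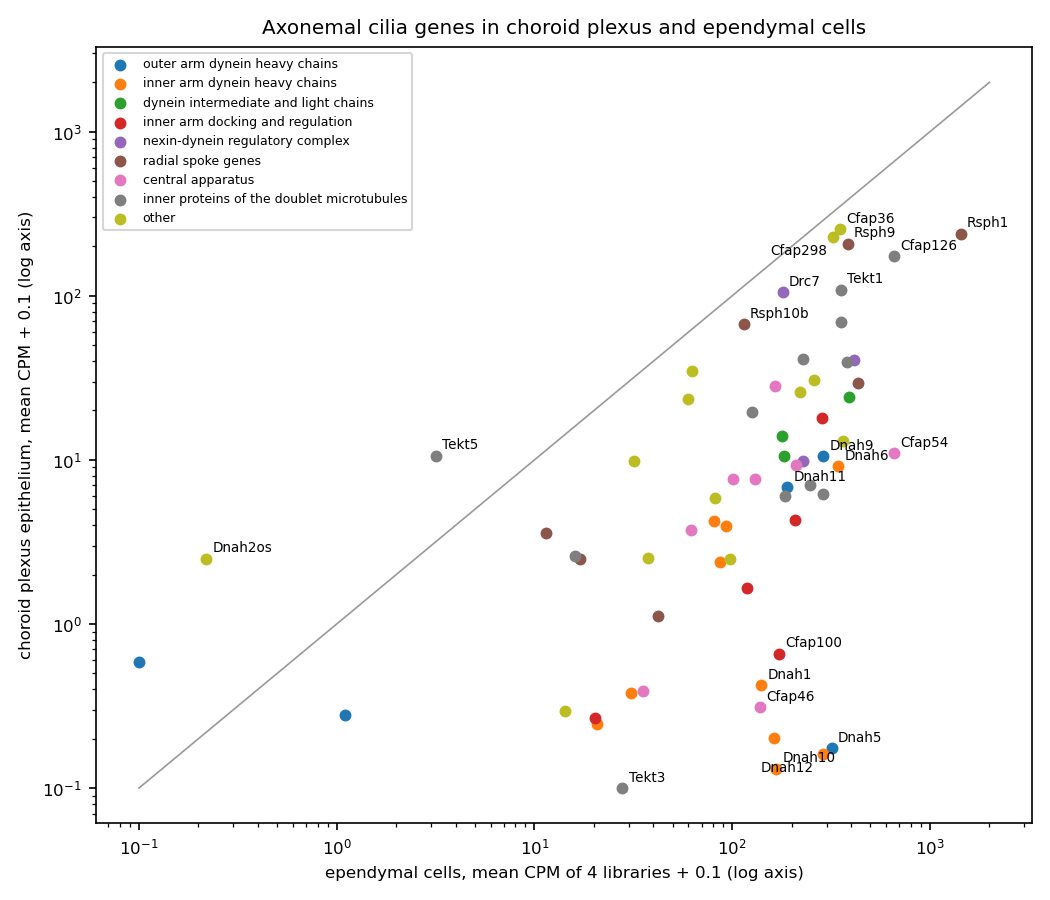
Mean CPM over 4 libraries plus 0.1 of each member in choroid plexus epithelium against ependymal cells, both on log axes, coloured by structural group; the grey line marks equal levels. Cfap36, Rsph1, Cfap298, Rsph9 and Cfap126 lie highest in choroid cells, while Dnah5, Dnah12 and Dnah10 lie at the bottom although they are above 100 CPM in ependymal cells.

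In astrocytes most members were low. By the same criterion, with the same floor of 3 UMIs, 5 of 66 members were present, against 5.13% of all genes. The members were not set apart by this share, which leaves out scarce genes. Dnaic2, Tekt4 and Tekt1 did not meet the criterion at means of 5.38, 5.34 and 5.05 CPM in astrocytes. Their means in microglia and endothelial cells were at most 0.756 CPM. The members that met it are given next. They were Rsph9 (48.6, 51.0, 49.5 and 48.0 CPM), Dnah7b (22, 18.7, 20.5 and 23.5 CPM), Dnaic1 (18.6, 15.4, 23.0 and 18.4 CPM), Cfap97d2 (16.6, 14.4, 12.8 and 15.5 CPM) and Cfap100 (14.8, 11.9, 12.3 and 14.4 CPM). The 4 libraries were close to each other for each of them. In microglia Dnah7b had at most 3 UMIs per library and Rsph9 stood at 2.06 to 3.38 CPM. Dnah5, by contrast, was at 0.264 to 0.663 CPM in astrocytes and at 0.0794 to 0.519 CPM in microglia.

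Some of these genes overlap others. Dnaic1 lies opposite Enho, a gene highly expressed by astrocytes, which stood at a mean of 707 CPM in astrocytes and 138 CPM in ependymal cells. Rsph9 overlaps Mrps18a on the opposite strand (67.5 CPM in astrocytes and 51.8 CPM in microglia), and Cfap100 overlaps Zxdc (18.7 and 14.9 CPM). The strand setting of the authors' counting is not given in the sources used here, and the part of overlapping genes in these values was not tested. In all, 35 of the 66 members overlap another gene of the matrices, 34 of them on the opposite strand. Dnah7b and Cfap97d2 overlap no other gene of the matrices, but Dnah7b is a near-identical copy of Dnah7a and Dnah7c, which were at 1.71 to 3.38 and 0.294 to 0.663 CPM in astrocytes.

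Excluding astrocytes with any UMI of the ependymal gate genes left 2393 of 2432, 1781 of 1825, 1740 of 1765 and 1879 of 1929 cells. With so few cells removed, the values could change little. Dnah7b then stood at 22, 19, 20.4 and 23.8 CPM and Cfap97d2 at 16.6, 14.8, 12.9 and 15.6 CPM. Of astrocytes, 25.9, 25.8, 25 and 28.4% had at least 1 UMI of the 46 members concentrated in ependymal cells, at median depths of 3103 to 3744 UMIs. The same share in microglia was 9.08, 9.20, 9.93 and 9.69%, at median depths of 3257 to 4961 UMIs. Summed over those 46 members, astrocytes held 86.4 to 97.9 CPM and microglia 22.9 to 30.5 CPM. In young tumour, markers of tumour-like cells summed to 1159 CPM in the astrocyte gate, against 56.1 to 62.1 CPM in the other libraries, and the part of such cells in the astrocyte values was not tested.

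**Figure D4:**
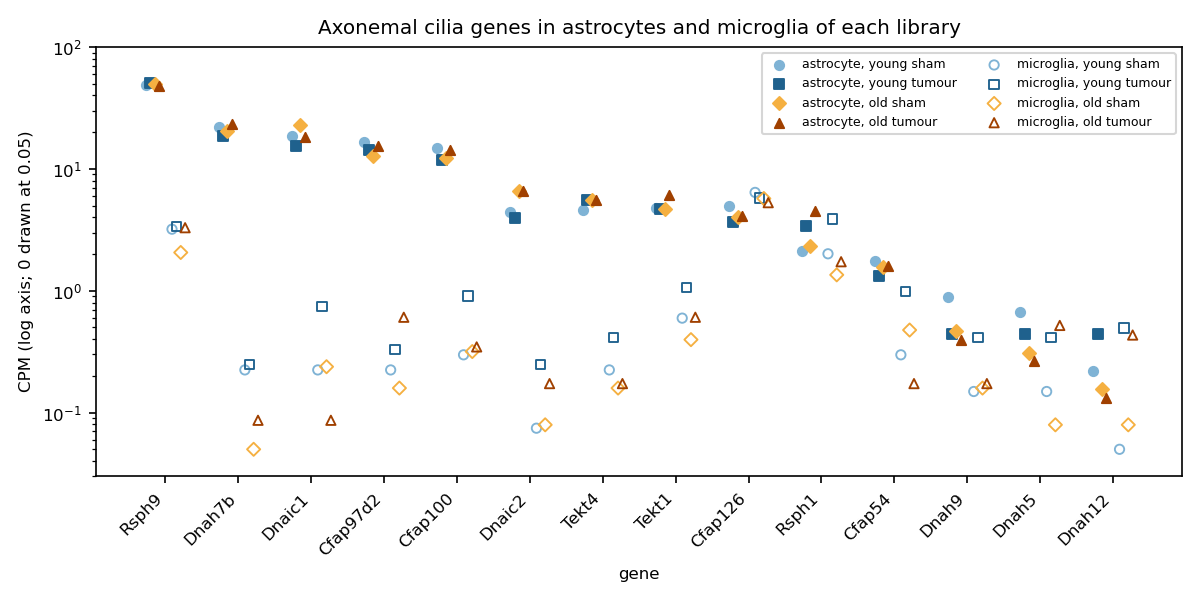
Level in CPM (log axis, 0 drawn at 0.05) of 14 members in astrocytes (filled symbols) and microglia (open symbols), 1 symbol per library. For Rsph9, Dnah7b, Dnaic1, Cfap97d2 and Cfap100 all 4 astrocyte values lie above all 4 microglial values, while for Dnah5 and Dnah12 the classes overlap.

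Some members were also found in other classes, although Cfap69, Cfap74, Cfap97 and Dnah14 among them were still highest in ependymal cells by mean CPM. Cfap97 (6.65% of UMIs in ependymal cells) was spread over the brain, with 51.8 to 66.4 CPM in ependymal cells, 36.4 to 43.4 in astrocytes, 40.2 to 46.1 in microglia and 41.1 to 72.1 in neuronal cells. Cfap20, Cfap36, Cfap298 and Cfap410 were likewise present in every class shown, although each was highest in ependymal cells. Cfap74, of the central apparatus, was at 24.9, 18.5, 23.7 and 19.0 CPM in microglia, above astrocytes (6.08 to 7.53 CPM) and below ependymal cells (86.8 to 116 CPM). It overlaps 5830444B04Rik on the opposite strand, which was at a mean of 10.1 CPM in microglia and 0.201 CPM in ependymal cells. Dnah14 was at 8.80, 5.97, 8.99 and 9.54 CPM in oligodendrocytes, where its opposite-strand neighbour Lbr was at a mean of 49.0 CPM. Dnah2os, an antisense transcript of the Dnah2 locus whose name met the rule, was at 16.6, 9.58, 11 and 15.3 CPM in endothelial cells and had 1 UMI in all ependymal cells, so it did not share the distribution of Dnah2. Cfap69 was at 4.93, 7.19, 15.5 and 18.8 CPM in neuronal cells, higher in both old libraries, on 6 to 17 UMIs each.

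The other genes of the pathway were counted from lists of 5 kinds, without the members. Of 76 further axonemal and motile cilia genes, 54 had over 50% of their UMIs in ependymal cells (median of the list 61.8%). The list was led in ependymal CPM by Tppp3, Dynlrb2 and Meig1. Tppp3 was not among the 54, with 29.3% of its UMIs in ependymal cells and a mean of 482 CPM in oligodendrocytes. Of 11 dynein assembly factors 5 passed 50% (median 49.0%), led by Pih1d2, Zmynd10 and Dnaaf4. Of 11 transcription factors 3 did (median 25.4%): Foxj1, the master regulator of motile cilia (673, 693, 637 and 639 CPM), Myb (185, 136, 158 and 149.6 CPM) and Trp73 (72.5, 51.8, 38.1 and 48.7 CPM). Rfx4 was higher in astrocytes (mean 163 CPM) than in ependymal cells (66.6 to 118 CPM). None of 38 genes of intraflagellar transport and the BBSome, which also build primary cilia, passed 50% (median 21%), with Ift43, Ift20 and Ift22 the most abundant. None of 11 tubulins did either (median 0.467%), although Tuba1a stood at 2359.7 to 2864 CPM and Tubb4b at 2139 to 2631 CPM in ependymal cells.

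The groups were compared within ependymal cells for members with at least 100 UMIs over the 4 libraries, 62 of the 66. Dnah8, Dnah17, Dnah2os and Tekt5 fell short. A member was called higher or lower where the ratio of CPM passed 1.5-fold, a rule of size and not a test. Since comparisons share libraries, each is given by its own values. The counts moved when each cell was thinned to 2000 UMIs, which left a median of 182 UMIs per member tested and 40 per gene tested, and when the mean of each cell's CPM was used. Those counts are given beside the main ones.

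Old and young sham differed by a median log2 ratio of -0.08 over the members, against -0.01 over all 9231 genes. Of the 62 members, 2 were called higher and none lower, against 6.67% and 6.79% of all genes. With thinned cells 6 were higher and 10 lower, against 21% and 21.7% of all genes, and the median turned to 0.01. With the mean of each cell's CPM, 1 was higher and 2 were lower, against 12.9% and 11.6%. The sum over the 66 members was 0.940 times that of young sham (interval 0.923 to 0.957). Dnah14 was at 14.4 and 29.0 CPM in young and old sham, and Rsph3a at 7.75 and 14.2 CPM with a ratio whose interval ran from 0.916 to 3.81. Among the abundant motors, Dnah6 (438 and 328 CPM, log2 ratio -0.42) and Dnah5 (384 and 289 CPM, log2 ratio -0.41) were lower in old sham without reaching the limit, as was Cfap221 (43.2 and 31.2 CPM). Cfap47 (59.8 and 81.8 CPM) and Cfap46 (146 and 179 CPM), both of the central apparatus, were higher in old sham, also within it.

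Between old and young tumour the median was -0.01, against -0.02 over all genes. No member was called higher and 3 were called lower, against 3.30% and 4.33% of all genes. With thinned cells 4 were higher and 4 lower, against 18% and 18.3% of all genes. Without thinning, those called were Dnah14 (24.7 CPM in young tumour and 14.9 in old tumour), Tekt2 (18.1 and 11.4 CPM), whose X-box is shown above, and Dnah7c (34.7 and 22.7 CPM), on 26 to 90 UMIs per library for these genes. The sum over all members had a ratio of 0.995 (0.981 to 1.01). Cfap58 (29.0 and 37.6 CPM) and Cfap300 (30 and 37.6 CPM) lay at the other end, within the limit and with intervals that included 1.

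Tumour and sham in young mice differed by a median of -0.13 over the members and of -0.02 over all genes, and 14 of the 62 members were above 0. The sum over the members was 0.911 times that of young sham (0.895 to 0.926). Only Dnah14 was called, higher at 24.7 CPM against 14.4, and none was called lower, against 5.50% and 4.56% of all genes. With thinned cells 5 were higher and 8 lower, against 18% and 19.8%, and with the mean of each cell's CPM 0 were higher and 3 lower, against 10.7% and 9.04%. Dnah12 (345 CPM in sham and 247 in tumour, log2 ratio -0.49) and Cfap43 (251 and 178 CPM, log2 ratio -0.49) were the lowest members with intervals well below 1. Young tumour was also the library with the highest astrocyte and tumour-like marker sums in its ependymal cells, and the part of these transcripts in the members' lower values was not tested. Of the astrocyte markers, only Gfap was highest there, at 659 CPM. Gfap stood at 47.0 CPM in young sham, 168 in old sham and 167 in old tumour.

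In old mice, tumour and sham differed by a median of -0.12, against -0.01 over all genes. No member was called higher and 3 were called lower, against 3.94% and 3.91% of all genes. With thinned cells 3 were higher and 12 lower, against 17.3% and 20.1% of all genes, and with the mean of each cell's CPM 0 were higher and 8 lower, against 7.84% and 12.6%. The 3 called without these changes were Dnah14 (29.0 CPM in sham and 14.9 in tumour), Cfap46 (179 and 110.2 CPM, ratio 0.614, 0.530 to 0.712) and Cfap47 (81.8 and 54.2 CPM, ratio 0.663, 0.534 to 0.825). Old sham was the highest of the 4 libraries for Cfap46 and Cfap47, and the other 3 libraries lay at 110.2 to 146 CPM and 50.9 to 59.8 CPM. Cfap300 was at the upper end with 25.6 and 37.6 CPM. The sum over the members had a ratio of 0.964 (0.949 to 0.979).

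By structure, the inner arm heavy chains stood at 0.853 (0.810 to 0.899) times sham with tumour in young mice and at 0.876 (0.834 to 0.919) in old mice. The intermediate and light chains stood at 0.821 (0.762 to 0.883) and 0.857 (0.803 to 0.913). The radial spoke genes were at 0.901 (0.866 to 0.938) and 1.02 (0.979 to 1.05), and the inner doublet proteins at 0.959 (0.924 to 0.995) and 1.05 (1.01 to 1.08). The outer arm heavy chains were at 0.861 (0.80 to 0.927) in old against young sham and 0.883 (0.831 to 0.938) in old against young tumour. The inner arm heavy chains were also lower with age, at 0.894 (0.847 to 0.944) in sham and 0.918 (0.876 to 0.961) in tumour mice. No other structural group had both age intervals below 1. With tumour, the central apparatus stood at 0.909 (0.863 to 0.957) in young mice and 0.853 (0.815 to 0.893) in old mice. The inner arm docking genes stood at 0.858 and 0.924 with tumour, and both intervals lay below 1. Each of these sums was within 1.5-fold. No member was called in the same direction in both age comparisons or in both tumour comparisons, where all genes gave 88 higher and 100 lower in both for age, and 78 higher and 46 lower for tumour.

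**Figure D5:**
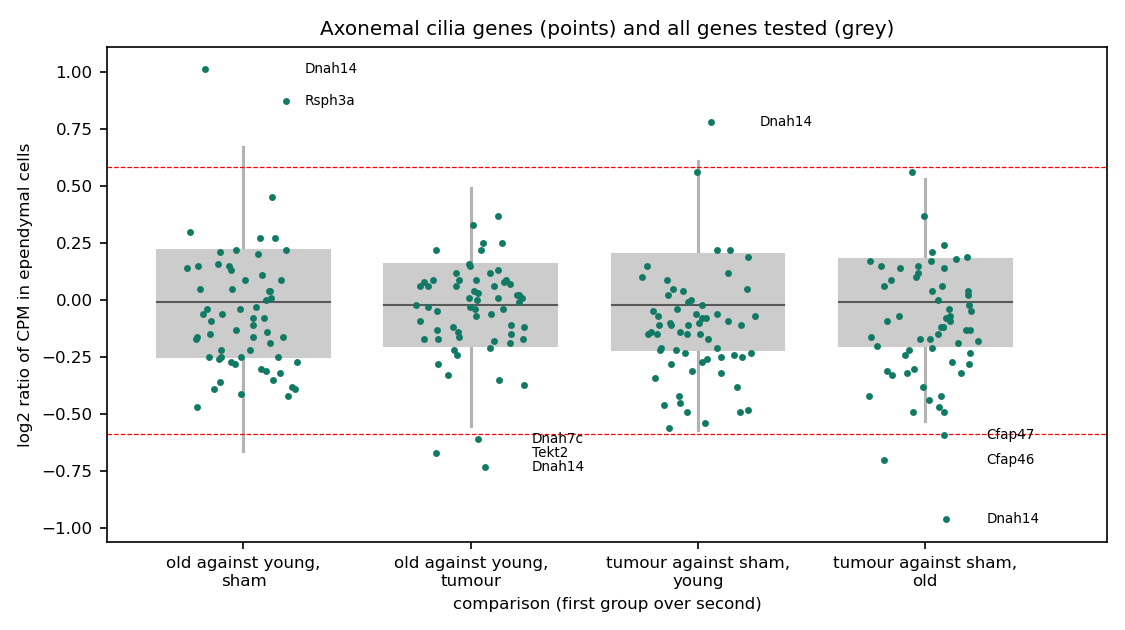
Log2 ratio of CPM in ependymal cells for 62 members (points) in 4 comparisons, over all 9231 genes tested (grey box from the 25th to the 75th percentile, line at the median, whisker from the 5th to the 95th percentile); dashed lines mark 1.5-fold. Most points lie inside the lines, and the named ones, Dnah14 in each comparison among them, lie outside.

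The pathway lists differed in size and direction. The 75 further axonemal genes tested had medians of -0.09, 0.03, -0.12 and -0.00 in old against young sham, old against young tumour, young tumour against sham and old tumour against sham. At most 4 of the 75 were called in any comparison. The 37 genes of intraflagellar transport and the BBSome had medians of -0.17, 0.02, -0.09 and 0.10, with 1 gene called in all 4 comparisons together, Traf3ip1, lower with tumour in old mice. The 11 dynein assembly factors had medians of -0.05, 0.05, -0.08 and 0.11, and only Pih1d1 was called, lower in old against young tumour and higher in young tumour against sham.

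The 10 transcription factors tested had medians of -0.16, 0.08, -0.25 and -0.03. In old against young sham, Gmnc (7.75 and 13.6 CPM in young and old) and E2f5 (13.8 and 26.7 CPM) were called higher, and Trp73 (72.5 and 38.1 CPM) and Rfx3 (105 and 67 CPM) lower. Gmnc was also higher in old against young tumour (5.71 and 13.1 CPM), and E2f4 was higher with tumour in old mice (12.5 and 20.7 CPM). Foxj1 was not called in any comparison. The 6 tubulins tested had the lowest medians in the age comparisons, -0.29 in sham and -0.33 in tumour, and stood at 0.06 and 0.17 with tumour in young and old mice. In old against young tumour Tubb2a (115 and 73.7 CPM), Tubb2b (21.9 and 12.1 CPM) and Tubb5 (86.5 and 54.5 CPM) were called lower, and Tubb5 was called higher in young tumour against sham.

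In choroid plexus epithelium 35 members had at least 100 UMIs, and 20.7, 15.7, 16 and 17.4% of all 7462 genes were called in the 4 comparisons. Of the members, 4 were called in old against young sham, 6 in old against young tumour, 5 in young tumour against sham and 3 in old tumour against sham. Rsph4a was lower with tumour at both ages, at 35.5 CPM in young sham and 21 in young tumour (ratio 0.591, 0.357 to 0.938) and at 41.1 CPM in old sham and 19.7 in old tumour (0.479, 0.380 to 0.606). Both tumour libraries thus lay below both sham libraries. In ependymal cells Rsph4a was also lower in both tumour libraries (404 and 403 CPM) than in both sham libraries (487 and 439.6 CPM), within 1.5-fold. Dnah6 was lower with tumour at both ages in choroid cells, on only 5 UMIs in young tumour, and its interval in old mice included 1.

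Drc7 was lower in old tumour than in old sham choroid cells, 79.9 against 132 CPM (ratio 0.603, 0.534 to 0.681), and equal in the young pair at 104 CPM. Cfap299, at 338 to 388 CPM in ependymal cells, was lower with age in choroid cells of both sham (16 and 7.81 CPM) and tumour mice (18.2 and 10.2 CPM). Tekt5 was higher with age in both pairs, with intervals that included 1. Over all genes in choroid cells, 144 were lower with tumour at both ages, 38 lower with age in both pairs and 178 higher with age in both. Choroid cells differed between libraries in depth, with medians of 6865, 4829.5, 7593 and 11482 UMIs, and erythroid transcripts summed to 698, 66.9, 41.7 and 17.9 CPM in them. The part of either in the choroid values was not tested.

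In astrocytes 15 members were tested, against 11603 genes of which 7.73, 15.0, 13.3 and 5.27% were called in the 4 comparisons. Only Dnaic2 was called, in old against young tumour (6.61 against 3.97 CPM, ratio 1.66, 1.02 to 2.77). Both old libraries (6.54 and 6.61 CPM) lay above both young ones (4.42 and 3.97 CPM). Summed over all members, astrocytes differed by a ratio of 0.996 to 1.01 in the 4 comparisons, and each interval included 1.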

How the data were processed

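Droplet 3′ single-cell RNA libraries were counted by the authors, and the deposited matrices hold raw UMI counts per gene and barcode. The submitters' processing notes name mm10, Cell Ranger 3.0.2 and Seurat 2.3.4, but per the file headers the matrices came from Cell Ranger 6.1.0, and which applies is not known. Barcodes with at least 500 UMIs, 200 genes and at most 20% mitochondrial UMIs were kept (44503 of 46097), and the highest Scrublet scores (scanpy 1.11.5) were removed at 0.8% per 1000 barcodes, leaving 40390 cells. Libraries held 62726818 to 76652484 UMIs.

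Cells were assigned by 12 marker gates. A cell passing several gates was set apart, except that cells passing the ependymal and astrocyte gates were called ependymal. Such cells set apart held 14.5 to 22.5% of member UMIs, and 39, 39, 32 and 58 cells that passed the ependymal gate had been removed as doublets. CPM are sums per class and library. Intervals are exact (Poisson or Clopper-Pearson, 95%) and cover counting error only. A count of 0 was replaced by 3 counts in ratios. In the 5-fold criterion for presence, microglial and endothelial counts below 3 were set to 3. The procedure was tested on simulated data. Positions are from GENCODE mouse release 21 and promoters from RefSeq.

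The members and gene lists were chosen with earlier results of these data known. Named genes are the 3 most abundant per family, the 5 highest and 5 lowest per comparison, the 5 highest in astrocytes and in choroid cells, members under 10% in ependymal cells and those at the UMI limit. Other names, the structural groups and the printed promoters were chosen after values were seen. Alternatives covered filters, doublets, gates, scaling, thinning and the UMI minimum.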

Additional observations from a re-analysis of the deposited data

Results flagged for a closer look

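Dnah14 in ependymal cells moved in opposite directions in the 2 age comparisons and in the 2 tumour comparisons. Its log2 ratio was 1.01 in old against young sham and -0.73 in old against young tumour. With tumour against sham it was 0.78 in young mice and -0.96 in old mice. It rests on 26, 52, 51 and 59 UMIs (young sham and tumour, then old sham and tumour), and with 1 library per group the difference between the groups was not tested. The 4 ratios come from the same 4 values, so they are not independent of each other. Of all 9231 genes, 78 were called in opposite directions in the age comparisons and 57 in the tumour comparisons. Lbr, on the opposite strand of the same locus, was at a mean of 22.4 CPM in ependymal cells, and its part was not tested.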

How the results depend on the processing

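No paired analysis was possible because the labels carry no replicate numbers and each group is 1 library. The median ependymal log2 ratio of the members stayed between -0.21 and 0.01 over 52 alternatives, and 44 to 47 members had over 50% of their UMIs in ependymal cells. The alternatives with each gate alone and with at least 1000 UMIs per gene were chosen after seeing the data. The causes of the shifts below were not tested. Where 4 values are listed without names, young comes before old and sham before tumour.

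The share of member UMIs in ependymal cells (46.8, 48.5, 46.1 and 54.7%) became 49.5, 46.6 and 56.0% in the last 3 libraries with the stricter cell filter (1000 UMIs, 10% mitochondrial), 42.6, 45.2, 43.1 and 51.1% without doublet removal, and 55.6, 60.6, 51.0 and 58.7% with each gate alone. Summed member CPM in astrocytes became 427 in young sham with the stricter filter, 433 and 463 in young sham and old tumour without doublet removal, and 371, 390.4 and 397 in young sham, young tumour and old tumour with each gate alone. In choroid cells it became 2109 in young sham with the stricter filter, 1876, 1705, 1876 and 1767 with each gate alone, 2081, 2112 and 2003 in young sham, old sham and old tumour with the Ttr gate at 5%, and 1841, 1861, 1887 and 1780.3 at 20%. Unthinned, the median members per ependymal cell were 44.0, 42.0, 43.0 and 43.0.

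Counts of members called in ependymal cells were small and shifted with the setting. With cells thinned to 2000 UMIs, 6 were higher and 10 lower in old against young sham, 4 higher and 4 lower in old against young tumour, 5 higher and 8 lower in young tumour against sham, and 3 higher and 12 lower in old tumour against sham. The shares of all genes called under the same thinning were 17.3 to 21% higher and 18.3 to 21.7% lower. With the mean of each cell's CPM, 1 was higher and 2 lower in old against young sham, 0 higher and 3 lower in young tumour against sham, and 8 lower in old tumour against sham. With at least 300 or at least 1000 UMIs, 0 were higher in old against young sham, 0 lower in old against young tumour and 0 higher in young tumour against sham, and with 1000 UMIs 1 was lower in old tumour against sham. With at least 20 UMIs, 1 was lower in old against young sham, 1 lower in young tumour against sham and 1 higher in old tumour against sham. In young tumour against sham, 1 was lower without doublet removal, with the ependymal gate at 2 UMIs and with each gate alone, and 2 were higher with a gate at 0.05% of UMIs. In old tumour against sham, 1 was higher with the stricter filter and with totals without mitochondrial and ribosomal protein genes.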
